A study of Mus musculus with 12 samples.

Results

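The CD40 agonist effect in the tumor-draining lymph node was taken as the difference between 4 libraries from mice given a CD40 agonist and 4 libraries from mice not given it, so that 8 of the 12 libraries of the series entered it. The libraries were chosen by their titles, and each agonist library was compared with the tumor-draining library that carried the same title prefix. All of them hold total RNA of mouse inguinal lymph node cells labelled CD11c, an integrin subunit that dendritic cells carry on their surface. Both groups of mice bore a subcutaneous KPC tumor, a model of pancreatic carcinoma, and they differed by the agonist alone as far as the labels go. A further group of 4 libraries, from nodes of healthy mice without tumor or agonist, served here for levels and for the estimate of the spread. The sources used here give no strain, sex, age, agonist name, dose or timing, control antibody or purity of the cells. Whether each library is a separate animal is also unstated, and the p-values cover only the spread among these libraries, which may be technical.

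Dendritic cells, B cells and macrophages carry CD40, a member of the tumor necrosis factor receptor family. It is normally engaged by CD40 ligand on activated helper T cells, and it signals through TRAF adaptors to the canonical and noncanonical NF-kB pathways. An agonist antibody can stand in for the T cell, and in dendritic cells CD40 engagement is known for driving maturation, cytokine secretion and the ability to prime cytotoxic T cells. Genes outside those well known outcomes, such as complement, metal handling, lipid mediators and RNA processing, are described below beside the receptor's own pathway.

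The 8 libraries held 41498395 to 56320661 estimated counts. Genes were tested on these counts with edgeR's quasi-likelihood test with the prefix as a block, and genes with a p under 0.05 after Benjamini-Hochberg adjustment over all genes tested count as called. Levels are given as CPM, counts brought to one common depth, and each change as a log2 fold change of agonist over tumor-draining with its standard error (SE), over 4 libraries per group. Where a fit without the block ended a call, its adjusted p is printed in the same place as "without the block". The agonist group also stood higher in Malat1, a nuclear noncoding RNA, which took 0.418% to 1.68% of the counts of tumor-draining libraries and 0.704% to 2.44% of those of agonist libraries. Malat1 was higher in 4 of 4 pairs (log2 fold change 0.76 with SE 0.12, adjusted p = 0.00187, 0.611 without the block). Mitochondrial genes took 1.23% to 4.75% and 1.51% to 4.38%. The part of either in the results was not tested. A fit without mitochondrial genes, Malat1 and Neat1 called 1515 genes higher and 1733 lower, against 1600 and 1561 with them. In bulk RNA, fewer cells of a type and less RNA per cell cannot be told apart.

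Of 23729 genes tested, 3161 were called (13.3%), 1600 of them higher (6.74%) and 1561 lower (6.58%). The median log2 fold change was 0.62 among genes called higher, -0.48 among genes called lower and 0.02 over all genes. A change of at least 2-fold was found for 600 called genes (2.53% of those tested), 395 higher and 205 lower, and a change of at least 4-fold for 49 higher and 27 lower. Of the called genes 3123 (98.8%) moved one way in 4 of 4 pairs. For 1480 of them the agonist and tumor-draining libraries did not overlap, and over all genes tested 1961 (8.26%) were in that state. Without the block 635 genes were called, 438 higher and 197 lower, and 631 of these were among the 3161. The count was 1482 in replicates 1 and 2 alone and 573 in replicates 3 and 4 alone.

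Abundant genes were called more often than rare ones. The share called was 2.21% of genes with a mean log2 CPM under 0, 8.12% from 0 to 2, 16.1% from 2 to 4, 23.9% from 4 to 7 and 32.0% at 7 and over. Counting precision rises along the same axis, so this order describes what could be detected as well as what changed. Protein coding genes were called in 2845 of 15823 cases (18%), 1417 higher and 1428 lower. Long noncoding genes were called in 159 of 3642 (4.37%). Of 200 antigen receptor gene segments 2 (1%) were called higher and 13 (6.5%) lower, with a median log2 fold change of -0.46. The share called lower was near the 6.58% of all genes. Of 664 tested genes on the X chromosome 20 were called higher and 69 lower, whereas on chromosome 17, which holds the major histocompatibility complex, 98 of 992 were called higher and 73 lower.

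**Figure D1:**
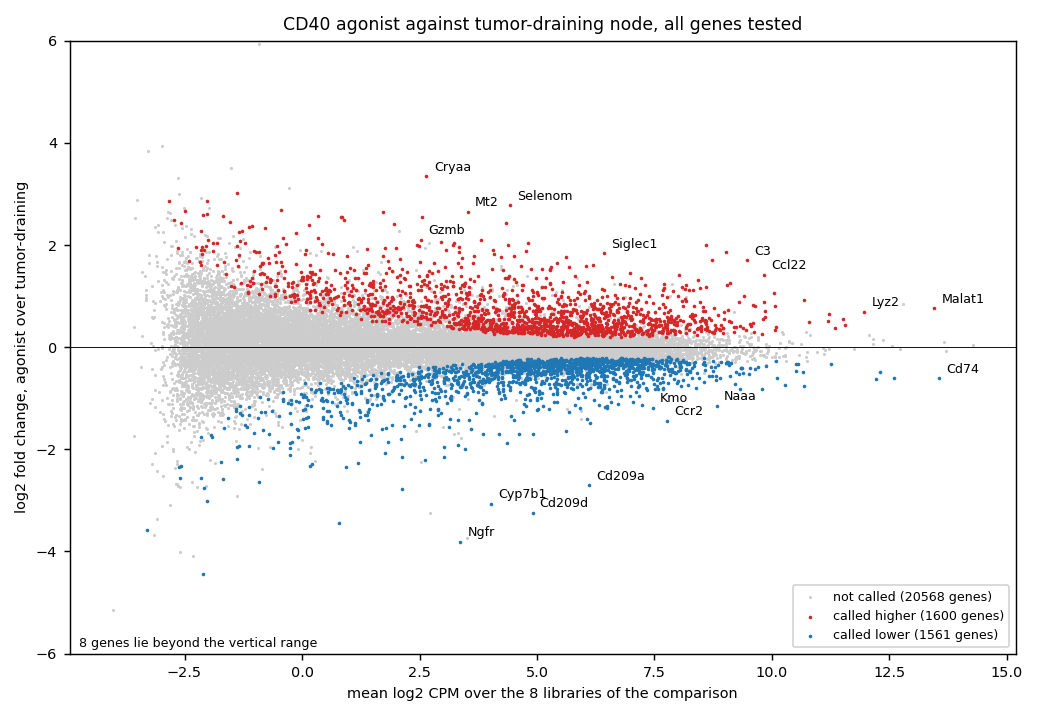
Each point is 1 of 23729 genes, with its mean log2 CPM over the 8 libraries on the horizontal axis and its log2 fold change of agonist over tumor-draining on the vertical axis. Red points (1600 genes) were called higher, blue points (1561 genes) were called lower, and the cloud is centred near 0 at a median of 0.02.

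Promoters of genes that moved were read from RefSeq for build GRCm38.p6, 250 bases before to 50 bases after the start, and matched 13744 tested genes by symbol. Motifs were searched on both strands. The interferon-stimulated response element, searched as GAAA, any 2 bases and GAAA, is bound by interferon regulatory and STAT factors. It occurred in 6.06% of the promoters of genes called higher, in 9.2% of those called higher by at least 2-fold, in 2.56% of those called lower and in 3.39% of all tested promoters. An NF-kB site, searched as GGGA, any 2 bases and TTCC, was in 2.56%, 4.0%, 1.03% and 1.53% of the same sets. Among genes called lower by at least 2-fold the response element was in 3.1% and the NF-kB site in 1.55%. The sets higher and lower by at least 2-fold held only 250 and 129 promoters, so a few genes move their shares. An AP-1 site, TGANTCA, was in 6.23% of promoters of genes called higher and 5.56% of those called lower, beside 6.05% of all tested. In the sets changed by at least 2-fold AP-1 was in 9.6% of those higher and 12.4% of those lower. A cAMP response element, TGACGTCA, was in 2.05% of genes called higher, 2.05% of those called lower and 2.77% of all tested, and in 2.0% of those higher and 0% of those lower by at least 2-fold. These are letter matches and not binding sites, and the shares were compared without a test.

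The 250 bases before the start are shown for 3 of the genes with the largest rises, with matches in capitals, to show where these letters lie. The choice and the capitals cover only some searched motifs, among them the interferon-stimulated response element, the NF-kB site and the ETS-IRF composite. Matches to others, such as AP-1 and a metal response element, were not used for the choice and stay in small letters. Serpinb9b encodes a relative of the serpin that inhibits granzyme B, and its window holds an ETS-IRF composite match, GGAA, any 2 bases and GAAA read on the other strand, at chr13:33027164-33027413 on the plus strand. Gzma encodes the cytotoxic granule protease granzyme A, and its window holds a response element match at chr13:113100982-113101231 on the minus strand. Gbp2b encodes an interferon-induced guanylate-binding GTPase, and its window holds a response element match at chr3:142594597-142594846 on the plus strand. All 3 are written 5′ to 3′ along the gene.
Serpinb9b: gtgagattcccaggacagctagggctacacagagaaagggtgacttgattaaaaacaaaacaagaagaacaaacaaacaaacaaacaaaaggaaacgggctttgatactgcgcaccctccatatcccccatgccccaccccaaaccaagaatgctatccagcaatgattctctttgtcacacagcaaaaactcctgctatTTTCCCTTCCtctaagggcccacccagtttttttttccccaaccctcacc
Gzma: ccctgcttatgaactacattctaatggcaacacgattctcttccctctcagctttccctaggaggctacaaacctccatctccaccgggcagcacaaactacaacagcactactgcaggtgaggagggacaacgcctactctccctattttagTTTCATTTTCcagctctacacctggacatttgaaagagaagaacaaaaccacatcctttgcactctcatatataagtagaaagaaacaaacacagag
Gbp2b: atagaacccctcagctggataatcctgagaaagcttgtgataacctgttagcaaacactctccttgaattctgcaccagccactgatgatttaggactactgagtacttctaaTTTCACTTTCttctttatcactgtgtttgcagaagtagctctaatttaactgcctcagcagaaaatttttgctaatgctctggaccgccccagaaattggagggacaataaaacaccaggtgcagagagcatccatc

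The ETS-IRF composite, a joint site of PU.1-type and interferon regulatory factors, was in 3.58% of promoters of genes called higher, 2.48% of those called lower and 2.52% of all tested. In the sets changed by at least 2-fold it was in 8 of 250 higher (3.2%) and 6 of 129 lower (4.65%), counts too small to give an order. The promoter of Cd209d, which fell, also held a match. Serpinb9b measured 12.5, 8.65, 4.78 and 10.4 CPM in tumor-draining replicates 1 to 4 and 54.3, 61.6, 30.2 and 47.9 CPM in agonist replicates 1 to 4. Gbp2b measured 8.31, 6.7, 15.0 and 8.16 CPM against 51.0, 38.0, 22.3 and 23.2 CPM. For both, the lowest agonist library lay above the highest tumor-draining library. The log2 fold change was 2.43 (SE 0.18, adjusted p = 0.000111) for Serpinb9b and 1.83 (SE 0.35, adjusted p = 0.0138) for Gbp2b, which was 2.55 in replicates 1 and 2 and 1.05 in replicates 3 and 4. Without tumor-draining replicate 2 the change of Gbp2b was 1.66 (adjusted p = 0.0523). Both genes belong to families of near-identical copies, so the division of reads among them is uncertain.

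The largest changes were followed in 3 ranges of expression, 8 rises and 8 falls in each, 48 genes in all. The libraries of the groups did not overlap for 44 of them, 42 were also called without the block, and 41 kept their call without each single library. Of these genes, those that rose included components of complement, chemokines and lysosomal and metal-binding proteins, and those that fell included lectins, chemokine and integrin receptors, and enzymes of oxysterol, tryptophan and lipid amide metabolism. They were chosen for the size of their change, so the direction and the calls are a description of the choice.

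**Figure D2:**
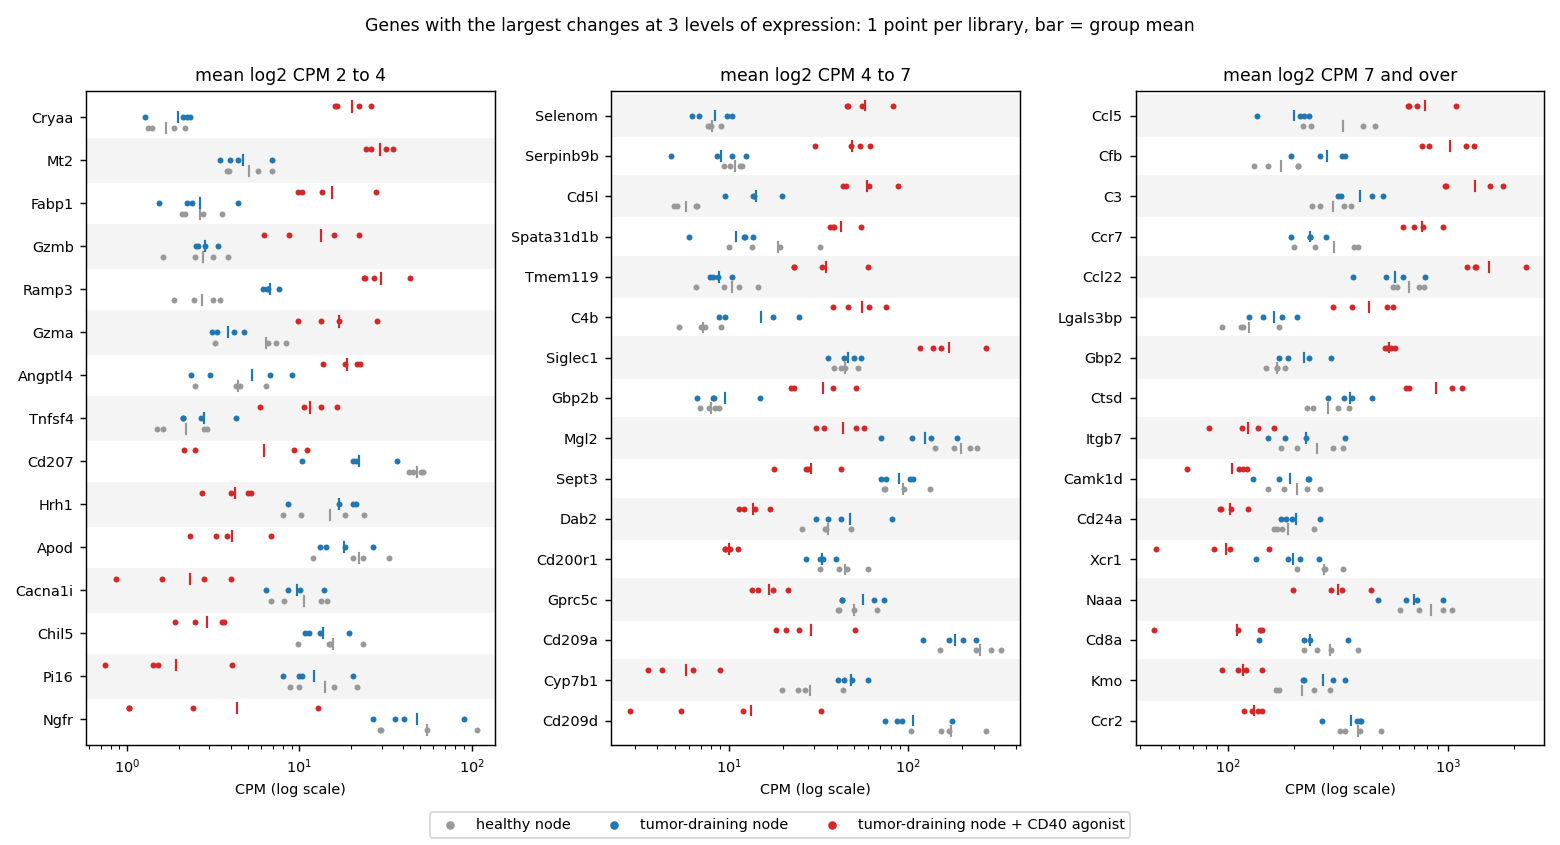
Each point is the CPM of 1 library on a log axis, in grey for healthy, blue for tumor-draining and red for agonist nodes, and the short bars are group means, for 47 of the 48 genes with the largest rises and falls in 3 ranges of mean log2 CPM. For 43 of the 47 genes plotted no red point lies among the blue ones.

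The complement genes C3, Cfb and C4b were among the largest rises. C3 is the central component that is cleaved on target surfaces, Cfb supplies the protease of the alternative pathway convertase, and C4b belongs to the classical pathway. C3 measured 318, 327, 450.5 and 505 CPM in tumor-draining replicates 1 to 4 and 979.8, 965, 1551 and 1777 CPM in the agonist replicates (log2 fold change 1.70 with SE 0.16, adjusted p = 0.000219). Cfb measured 194, 262, 331 and 342 CPM against 760, 816, 1304 and 1211 CPM (log2 fold change 1.86 with SE 0.19, adjusted p = 0.000516). The means of the healthy libraries were 301 CPM for C3 and 175 CPM for Cfb. C4b went from 17.6, 9.52, 24.8 and 8.84 CPM to 75.1, 38.3, 46.3 and 60.7 CPM (log2 fold change 1.89 with SE 0.34, adjusted p = 0.0130), and without tumor-draining replicate 1 its adjusted p was 0.0519. For these 3 genes the groups did not overlap. In the GRCm38 annotation C3 lies on chromosome 17 from 57203970 to 57228136, and Cfb and C4b lie near each other on the same chromosome at 34856374 to 34862518 and 34728380 to 34743882.

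Among genes of cell migration with the largest changes, Ccr2, Xcr1 and Cyp7b1 fell and Ccl22, Ccl5 and the receptor Ccr7 rose. Ccr2, the receptor through which monocytes and their descendants follow Ccl2, measured 386, 267, 397 and 404 CPM in tumor-draining libraries and 144, 129, 119 and 137 CPM in agonist libraries (log2 fold change -1.44 with SE 0.13, adjusted p = 0.000119). Xcr1, the receptor of cross-presenting dendritic cells for Xcl1, stood at 135, 212, 188 and 259 CPM against 47.6, 154, 87.1 and 103 CPM, and the groups overlapped (log2 fold change -1.08 with SE 0.21, adjusted p = 0.0140, 0.0886 without the block). Its adjusted p was 0.0575 without agonist replicate 3 and 0.0525 without agonist replicate 4. Gpr183, the oxysterol receptor that positions dendritic cells and B cells within lymphoid tissue, fell in the same direction from 197, 145, 189 and 179 CPM to 90.0, 72.2, 110.5 and 95.1 CPM, with no overlap (log2 fold change -0.96 with SE 0.07, adjusted p = 2.56e-05). Cyp7b1, the hydroxylase that turns an oxysterol precursor into the ligand of Gpr183, measured 44.0, 40.7, 59.7 and 48.8 CPM against 3.55, 6.36, 4.28 and 8.97 CPM. The agonist libraries thus held Cyp7b1 at levels below that of every tumor-draining library, and the healthy mean was 28.5 CPM. Ccl22, a chemokine that attracts Ccr4-bearing T cells, stood at 372 to 789 CPM in tumor-draining and 1216 to 2251 CPM in agonist libraries, and Ccl5 at 136 to 235 and 656 to 1091 CPM.

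The surface receptor genes Mgl2, Cd207 and Cd200r1 and the adaptor gene Dab2 were among the largest falls. Mgl2, the galactose-binding lectin CD301b, measured 134, 70.4, 105 and 187 CPM in tumor-draining and 57.0, 34.2, 30.8 and 51.1 CPM in agonist libraries (log2 fold change -1.48 with SE 0.23, adjusted p = 0.00583). Cd207, which encodes langerin, stood at 21.2, 20.4, 10.4 and 37.0 CPM against 2.48, 9.34, 2.13 and 11 CPM (log2 fold change -1.92 with SE 0.45, adjusted p = 0.0373, 0.0969 without the block). The Cd207 groups overlapped, and leaving out a single library gave an adjusted p of up to 0.109. Cd200r1, an inhibitory receptor of myeloid cells, was measured at 33.5, 27.0, 32.4 and 39.5 CPM against 9.54, 10.2, 9.58 and 11.3 CPM (log2 fold change -1.69 with SE 0.15, adjusted p = 0.000121). Dab2, an endocytic adaptor, went from 42.1, 30.8, 81.5 and 35.8 CPM to 17.0, 12.2, 11.5 and 14.1 CPM. The 81.5 CPM of tumor-draining replicate 3 was the one high value, and the groups were apart without it as well.

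Siglec1, Marco, Cd5l and Axl rose. Of 14 monocyte and macrophage markers, described further below, 4 rose and 3 fell, the latter being Ccr2, Adgre1 and Cd163. Siglec1, the sialic acid receptor of lymph node sinus macrophages, measured 35.8, 43.8, 50.3 and 54.6 CPM in tumor-draining and 137, 117, 270.2 and 153 CPM in agonist libraries (log2 fold change 1.84 with SE 0.20, adjusted p = 0.00105). Marco, a scavenger receptor of sinus macrophages, went from 27.6, 21.2, 17.1 and 26.8 CPM to 84.2, 58.7, 76.5 and 47.2 CPM (log2 fold change 1.53 with SE 0.18, adjusted p = 0.00105). Cd5l, a protein secreted by tissue macrophages, went from 9.61 to 19.8 CPM to a range of 43.4 to 88.3 CPM. None of these 3 genes overlapped between the groups. Axl, a receptor for apoptotic cells, rose with them from 196, 129, 239 and 176 CPM to 389, 305, 502 and 474 CPM (log2 fold change 1.17 with SE 0.20, adjusted p = 0.00741). Of 20 genes for the uptake of apoptotic cells, 4 rose and 5 fell, with a median log2 fold change of 0.45. Among those that fell was Pros1 (-0.68, 0.0753 without the block), a bridging ligand for other receptors of the family of Axl. The scavenger receptor Cd36 fell too (-0.56, 0.115 without the block), and its adjusted p was up to 0.125 without 1 library.

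Ngfr, the low-affinity neurotrophin receptor, had the largest fall of the 48 genes, from 26.7, 35.8, 40.3 and 90.3 CPM to 1.02, 2.42, 1.03 and 12.9 CPM (log2 fold change -3.81 with SE 0.71, adjusted p = 0.0184, 0.0718 without the block). Replicate 4 was the highest of each group, and the adjusted p passed 0.05 without any of 5 single libraries, reaching 0.0628 without agonist replicate 1. Cd209d, a C-type lectin, had a log2 fold change of -3.24 (SE 0.69, adjusted p = 0.0282), with 74.0 to 175 CPM against 2.81 to 32.7 CPM. Its adjusted p was 0.0569 to 0.0849 in 7 of the 8 fits that left out 1 library. Cd8a, carried by lymph node resident type 1 dendritic cells as well as T cells, stood at 139, 236, 221 and 352 CPM against 46.5, 144, 111 and 139.6 CPM (log2 fold change -1.14 with SE 0.24, adjusted p = 0.0212, 0.112 without the block), with an adjusted p of up to 0.0793 without 1 library. For these 3 falls the call thus depends on single libraries.

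Other genes with the largest falls included Kmo and Naaa. Kmo, kynurenine 3-monooxygenase of the tryptophan pathway, measured 219.8, 223, 342 and 302 CPM in tumor-draining and 94.2, 121, 144 and 111 CPM in agonist libraries (log2 fold change -1.19 with SE 0.10, adjusted p = 4.19e-05). Naaa, the lysosomal amidase of palmitoylethanolamide, measured 483, 642, 725 and 947 CPM against 198, 446, 293 and 331 CPM (log2 fold change -1.14 with SE 0.17, adjusted p = 0.00266). Both separated the groups. Camk1d, a calcium and calmodulin dependent kinase, fell from 131, 170.5, 231 and 234 CPM to 65.5, 113, 123 and 118 CPM (log2 fold change -0.87 with SE 0.09, adjusted p = 0.000124, 0.0683 without the block). The integrin subunit Itgb7 went from 153, 182, 228 and 341 CPM to 82.2, 116, 162 and 137 CPM, with overlap (log2 fold change -0.85 with SE 0.12, adjusted p = 0.000888, 0.131 without the block). Cd24a, a glycoprotein of type 1 dendritic cells, B cells and granulocytes, went from 174, 196, 262 and 184 CPM to 104, 124, 92.0 and 93.8 CPM. Sept3, a septin, and Gprc5c, an orphan receptor, had log2 fold changes of -1.64 (SE 0.24) and -1.70 (SE 0.18).

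Lgals3bp, Ctsd, Angptl4, Tmem119 and Tnfsf4 were among the largest rises, at different levels of expression. Lgals3bp, a secreted galectin ligand, measured 145, 125, 207 and 177 CPM in tumor-draining and 365, 301, 527 and 565 CPM in agonist libraries (log2 fold change 1.4 with SE 0.14, adjusted p = 0.000219). Ctsd, the lysosomal aspartic protease cathepsin D, measured 337, 285, 452 and 365 CPM against 667, 647, 1159 and 1043 CPM (log2 fold change 1.27 with SE 0.21, adjusted p = 0.00568). Angptl4, a secreted inhibitor of lipoprotein lipase, stood at 6.73, 3.01, 9.08 and 2.36 CPM against 22.6, 13.7, 18.5 and 21.5 CPM (log2 fold change 2.01 with SE 0.35, adjusted p = 0.00814). In each of the 3 every agonist library was above all tumor-draining libraries. Tmem119, a membrane protein best known from microglia, went from 7.87 to 10.4 CPM to a range of 23.2 to 59.8 CPM, with the highest value in agonist replicate 4. Tnfsf4, the ligand of the costimulatory receptor OX40, went from 4.29, 2.1, 2.7 and 2.11 CPM to 16.5, 13.3, 10.7 and 5.93 CPM (log2 fold change 2.01 with SE 0.20, adjusted p = 0.000142).

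The largest falls in CPM included Cd74 and class II genes, and the largest rises included Lyz2, B2m, H2-K1 and Apoe. The 8 genes with the largest falls in CPM took 3.53% to 5.72% of tumor-draining libraries and 2.35% to 3.48% of agonist libraries. The 8 with the largest rises took 1.17% to 1.56% and 1.85% to 2.59%. The largest fall was that of Cd74, the invariant chain that escorts class II molecules, with 12942, 11605, 15441 and 20969.7 CPM in tumor-draining and 7723, 9002, 12115 and 10776 CPM in agonist libraries. It fell within each pair, and the groups overlapped (log2 fold change -0.61 with SE 0.12, adjusted p = 0.00583, 0.258 without the block). The class II chain gene H2-Aa stood at 7512, 6598, 7819 and 9059 CPM against 4909, 4818, 5820.1 and 4758 CPM, with no overlap (log2 fold change -0.60 with SE 0.11, adjusted p = 0.00437, 0.105 without the block). March1, the ubiquitin ligase that removes class II from the cell surface, fell too, from 224, 224, 297 and 238 CPM to 119, 165, 145 and 124 CPM (log2 fold change -0.82 with SE 0.10, adjusted p = 0.000319).

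The other falls were those of H2-Ab1 (log2 fold change -0.62, 0.141 without the block), H2-Eb1 (-0.48, 0.288 without the block), Wdfy4 (-0.76, 0.253 without the block), which cross-presentation of cell-borne antigen requires, the large scaffold gene Ahnak (-0.73, 0.333 without the block), and the actin-binding genes Flna (-0.48, 0.466 without the block) and Lcp1 (-0.32, 0.706 without the block). H2-Eb1 had an adjusted p of 0.0581 without tumor-draining replicate 1 and 0.0563 without tumor-draining replicate 4. Lcp1 lost its call without 7 of the 8 libraries, with an adjusted p of up to 0.0880. Wdfy4 showed the widest spread, 1406 to 2981 CPM in tumor-draining and 698 to 1633 CPM in agonist libraries, and agonist replicate 1 was its low value. These falls were paired changes on top of a large spread between prefixes.

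Lyz2, lysozyme of myeloid cells, was the largest rise in CPM, from 3265, 2862, 2989 and 3527 CPM to 4518, 4476, 6329.9 and 5021 CPM (log2 fold change 0.69 with SE 0.13, adjusted p = 0.00551). B2m, the light chain of class I molecules, went from 2389, 2073, 2542 and 2642 CPM to 3925, 2869, 3530.3 and 3795 CPM (log2 fold change 0.54 with SE 0.09, adjusted p = 0.00156, 0.0875 without the block). The class I heavy chain gene H2-K1 went from 1696, 1685, 1817 and 2529 CPM to 2556, 2590.5, 3316 and 3611 CPM (log2 fold change 0.65 with SE 0.09, adjusted p = 0.000803, 0.0728 without the block). All 3 separated the groups. B2m and H2-K1 thus moved opposite to Cd74 and the class II genes above in the same libraries. These genes were chosen as the largest rises and falls in CPM, so the contrast follows from the choice. Fscn1, the actin bundler of mature dendritic cell processes, rose from a range of 864 to 1625 CPM to one of 1897 to 3109 CPM (log2 fold change 0.92 with SE 0.16, adjusted p = 0.00347, 0.0504 without the block). Apoe, a lipid carrier of macrophages, had a log2 fold change of 1.06 (adjusted p = 0.0255, 0.0662 without the block) that was 0.63 in replicates 1 and 2 and 1.43 in replicates 3 and 4, and its adjusted p was up to 0.0968 in the 6 of 8 fits without 1 library that ended the call. On the TPM scale, which corrects for transcript length, Cd74 stood at 9917 ± 2490 (SD, n = 4) in tumor-draining and 6306 ± 1527 in agonist libraries, B2m at 3272 ± 383 and 4764 ± 667, and H2-Aa at 6168 ± 649 and 3928 ± 458. By TPM, then, H2-Aa had the higher mean of the last 2 without agonist and B2m with it.

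**Figure D3:**
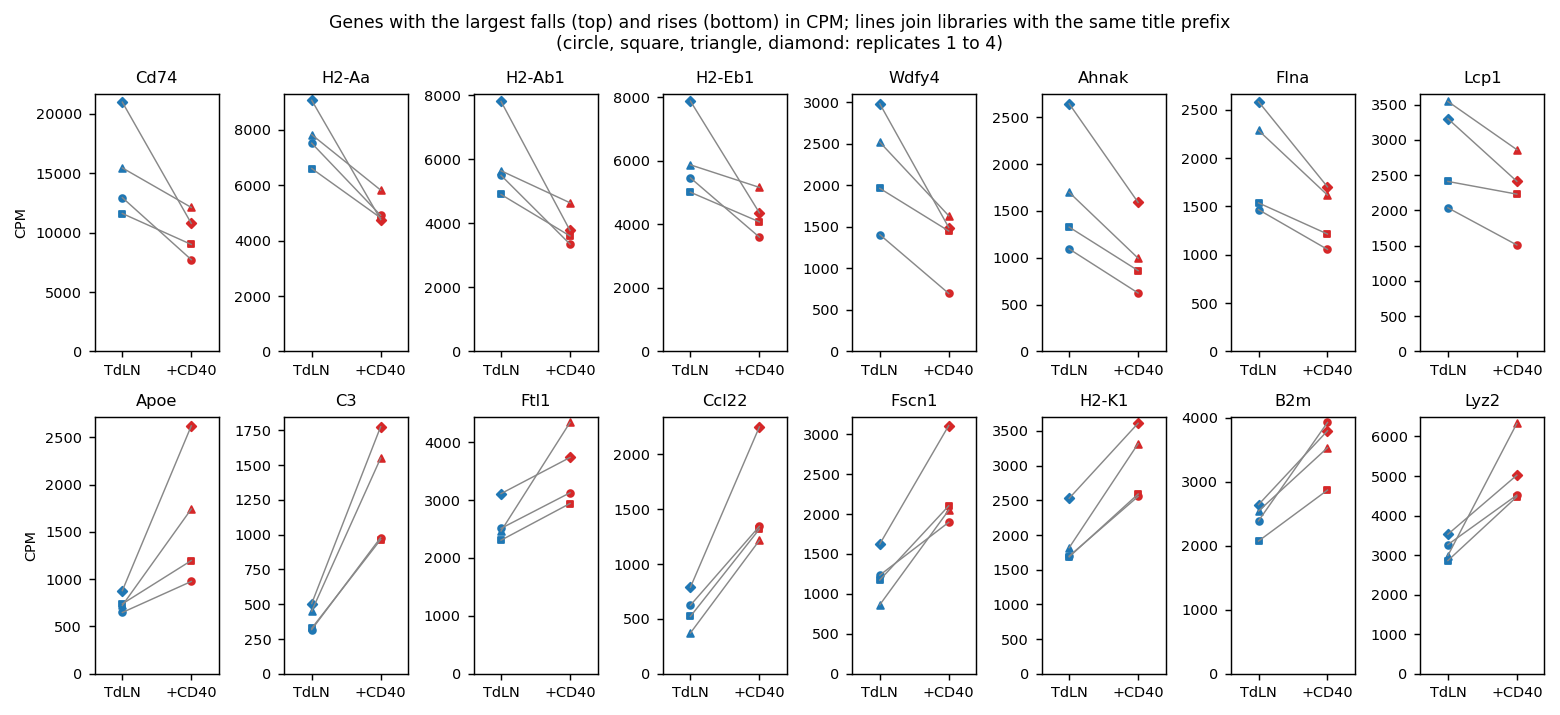
Each panel plots CPM from 0 for 1 gene, with lines that join the tumor-draining library (blue) and the agonist library (red) of the same prefix; the upper row holds the 8 largest falls in CPM and the lower row the 8 largest rises. All 4 lines fall in each upper panel and rise in each lower panel, as the choice of genes required, and the starting levels differ between prefixes, as for Cd74 from 11605 to 20969.7 CPM.

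The receptor's own pathway moved by small amounts. Of 16 genes for CD40 and its adaptors 8 rose and 2 fell, with a median log2 fold change of 0.27, and 1 of the 10, Traf1, was called without the block. Cd40 itself measured 147, 115, 105 and 137 CPM in tumor-draining and 155, 151, 148 and 164 CPM in agonist libraries, with no overlap (log2 fold change 0.31 with SE 0.08, adjusted p = 0.0193, 0.337 without the block). Its adjusted p was 0.0540 to 0.0841 without 6 of the single libraries. Traf1, an adaptor that NF-kB induces, went from 409, 396, 365 and 427 CPM to 579.6, 647, 668 and 683 CPM (log2 fold change 0.69 with SE 0.08, adjusted p = 0.000316). Members of the noncanonical arm and feedback inhibitors rose. These were Relb (0.57, 0.120 without the block), Nfkb2 (0.40, 0.389 without the block), Traf3 (0.48, 0.152 without the block), Nfkbia (0.50, 0.0849 without the block) and Tnfaip3 (0.36, 0.207 without the block). In the canonical arm the subunit gene Rel rose (0.32, adjusted p = 0.0321) and was not called without the block. Nfkb1, which encodes the p50 precursor of the same arm, fell from 436, 508, 762 and 698 CPM to 291, 362, 499.5 and 419 CPM, with overlap (log2 fold change -0.60 with SE 0.07, adjusted p = 0.000334, 0.253 without the block). Map3k14, the kinase that starts the noncanonical arm, had a log2 fold change of -0.30 (adjusted p = 0.0174, 0.645 without the block). Without 1 library the adjusted p reached 0.122 for Tnfaip3 and 0.0501 for Map3k14. Of the 8 rises 5 kept their call without each single library.

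Gene families and pathways were set beside all genes tested, of which 6.74% were called higher and 6.58% lower. Among protein coding genes these shares were 8.96% and 9.02%. At a mean log2 CPM of 4 to 7 they were 11% and 12.9%, and at 7 and over 15.9% and 16.1%. The lists were not matched for level of expression, so a share above that of all genes can reflect abundance. No test of a list as a whole was made, and the lists were chosen with earlier results of these data known. Members named beyond the 3 with the smallest p of a list were chosen after their values were seen.

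**Figure D4:**
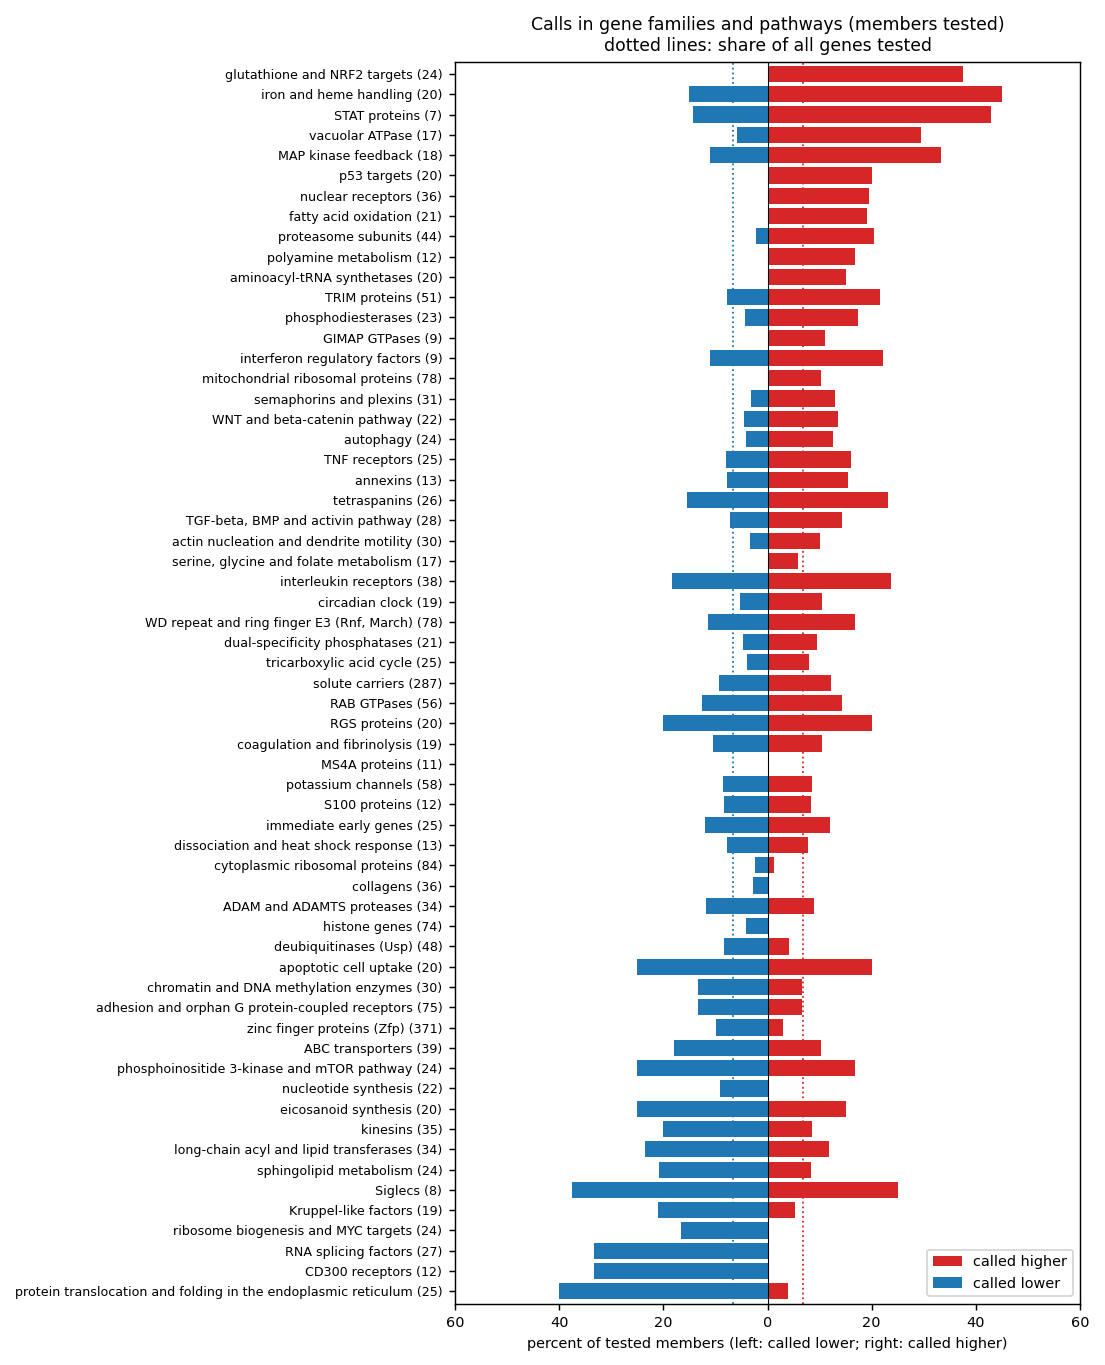
Each bar gives the percent of the tested members of 1 list that were called higher (red, to the right) or lower (blue, to the left), with the number tested in parentheses, and dotted lines mark 6.74% and 6.58%, the shares over all genes. Among protein coding genes alone these shares were 8.96% and 9.02%. Glutathione and NRF2 targets and iron handling stand at the top, and splicing factors, CD300 receptors and endoplasmic reticulum folding genes at the bottom.

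Genes of iron handling changed often: 9 of 20 rose and 3 fell, with a median log2 fold change of 0.35. Fth1, the ferritin heavy chain that oxidises and stores iron, measured 710.3, 574, 741 and 678 CPM in tumor-draining and 1345, 960.1, 1638 and 1115 CPM in agonist libraries (log2 fold change 0.89 with SE 0.10, adjusted p = 0.000219). The ferroxidase Cp, ceruloplasmin, went from 31.7, 38.2, 46.3 and 40.4 CPM to 89.1, 72.1, 113 and 90.6 CPM (log2 fold change 1.21 with SE 0.14, adjusted p = 0.000537). Slc11a1, which pumps iron out of phagosomes, went from 45.9, 30.9, 44.3 and 41.3 CPM to 80.7, 54.4, 85.9 and 90.8 CPM (log2 fold change 0.93 with SE 0.11, adjusted p = 0.000285). None of these overlapped between the groups. The heme oxygenase Hmox1 (log2 fold change 1.58 with SE 0.23, adjusted p = 0.00468) and the iron exporter Slc40a1 (1.4, SE 0.28, adjusted p = 0.0156) rose as well, and Slc40a1 lost its call without either of 2 single libraries, at an adjusted p of up to 0.0602. The genes that fell were the transferrin receptor Tfrc, which takes iron in, from 47.6, 59.4, 83.0 and 63.4 CPM to 39.0, 39.3, 43.8 and 32.8 CPM (-0.68, adjusted p = 0.00375, 0.0588 without the block), its partner Hfe (-0.65) and the hemoglobin scavenger Cd163 (-1.53). Without the block 6 of the 9 rises and 2 of the 3 falls were called, and 5 and 3 kept their call without each single library.

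Antioxidant genes moved one way. Of 24 genes of glutathione synthesis and NRF2 targets 9 rose and 0 fell, with a median log2 fold change of 0.25; 5 of the 9 were called without the block and 7 kept their call without each library. Txn1, thioredoxin, measured 117, 107, 116 and 104 CPM in tumor-draining and 219, 168, 173 and 169 CPM in agonist libraries (log2 fold change 0.71 with SE 0.07, adjusted p = 0.000118). Srxn1, which repairs oxidised peroxiredoxins, went from 17.0, 15.3, 17.5 and 18.8 CPM to 25.7, 31.4, 31.1 and 35.2 CPM (log2 fold change 0.84 with SE 0.10, adjusted p = 0.000257). Slc7a11, the cystine importer, went from 149, 99.7, 113 and 115 CPM to 209.8, 215, 179.8 and 279 CPM (log2 fold change 0.89 with SE 0.13, adjusted p = 0.00133). The groups stood apart for all 3. Mt2, a metallothionein that binds zinc and copper and is often induced with these genes, stood at 3.47 to 6.98 CPM against 24.5 to 35.1 CPM.

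Nuclear receptors also moved one way, with 7 of 36 higher, 0 lower and a median log2 fold change of 0.24. Vdr, the vitamin D receptor, measured 9.76, 6.27, 16 and 8.55 CPM against 31.6, 21.3, 26.1 and 34.9 CPM (log2 fold change 1.54 with SE 0.22, adjusted p = 0.00193). Nr1h3, the oxysterol sensor LXR alpha, measured 65.3, 69.7, 73.4 and 80.9 CPM against 145, 129.8, 247 and 164 CPM (log2 fold change 1.23 with SE 0.22, adjusted p = 0.00993). These 2 were called without the block and separated the groups. The other 5 were not called without it, among them Rora (0.47, 0.158 without the block), whose adjusted p was up to 0.0789 without 1 library. Abcg1, a cholesterol exporter and known target of the LXR receptors, rose from 399, 324, 335 and 447 CPM to 575, 479, 519.8 and 757 CPM (log2 fold change 0.62 with SE 0.08, adjusted p = 0.000604, 0.0558 without the block).

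Among 39 ABC transporters 4 rose and 7 fell, with a median of -0.03. Abca9, a transporter of the A subfamily, went from 76.4, 38.6, 54.5 and 72.4 CPM to 32.5, 19.6, 20.9 and 29.6 CPM (log2 fold change -1.22 with SE 0.08, adjusted p = 9.74e-06), and its neighbor in the family Abca6 from 6.54, 4.47, 4.57 and 7.27 CPM to 1.74, 1.54, 1.82 and 2.3 CPM (log2 fold change -1.61 with SE 0.14, adjusted p = 5.87e-05). The groups did not overlap for either gene. Genes of lipid desaturation, elongation and acyl transfer fell in 8 of 34 cases and rose in 4, with a median of -0.12; they included Fads2 (-0.86, 0.230 without the block), Scd2 (-0.63, 0.153 without the block) and Agpat5 (-0.45, 0.0555 without the block), and 0 of the 12 were called without the block. In eicosanoid synthesis 3 of 20 genes rose and 5 fell. Alox5ap, the partner that presents arachidonate to 5-lipoxygenase, measured 201, 157, 208 and 224 CPM against 125, 110.2, 141 and 106 CPM (log2 fold change -0.70 with SE 0.10, adjusted p = 0.000892). Alox5 itself had a log2 fold change of -1.22 (SE 0.21, adjusted p = 0.00357, 0.0754 without the block), the leukotriene hydrolase Lta4h -0.52 (adjusted p = 0.00156, 0.201 without the block), and Ptgr1, a reductase that inactivates leukotrienes and prostaglandins, -1.05 (SE 0.14, adjusted p = 0.000504). Of the genes that rose, Pla2g4a releases arachidonate (0.58, 0.0503 without the block) and Ptges makes prostaglandin E (1.12, 0.302 without the block). The adjusted p of Ptges was up to 0.0895 without 1 library.

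Interleukin receptors changed in both directions. Of 38 tested, 9 rose and 7 fell, with a median of 0.12; 5 of the rises and 0 of the falls were called without the block. Il2ra, the high-affinity chain for interleukin-2, was among the steadiest, at 12.7, 11.9, 13.1 and 12.7 CPM in tumor-draining and 29.0, 37.3, 29.5 and 32.6 CPM in agonist libraries (log2 fold change 1.35 with SE 0.10, adjusted p = 3.06e-05). Il15ra, which presents interleukin-15 in trans, went from 60.4, 48.0, 27.2 and 38.8 CPM to 153, 129, 105 and 125 CPM (log2 fold change 1.62 with SE 0.19, adjusted p = 0.00106). Il12rb1, a chain of the receptors for interleukin-12 and interleukin-23, went from 2.23, 2.41, 3.51 and 3.25 CPM to 7.48, 5.85, 9.54 and 8.83 CPM (log2 fold change 1.48 with SE 0.14, adjusted p = 9.01e-05). The groups were apart for these 3, and Il21r (0.92) rose too. Receptors that fell included Il17ra (-0.64, 0.140 without the block), Il1rl1, which binds interleukin-33 (-0.92, 0.0793 without the block), and the interleukin-6 receptor Il6ra (-0.48, 0.358 without the block).

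Stat4 and some interferon regulatory factors rose. Stat4, which signals for interleukin-12, measured 43.2, 66.3, 70.5 and 65.4 CPM against 98.7, 141, 105 and 97.6 CPM, with no overlap (log2 fold change 0.85 with SE 0.11, adjusted p = 0.000744). Of 9 interferon regulatory factors Irf1 (0.79) and Irf7 (1.16, 0.0524 without the block) rose and Irf4 (-0.43, 0.307 without the block) fell, the last with an adjusted p of up to 0.0745 without 1 library. Of 51 TRIM proteins, many of which act in antiviral defense, 11 rose and 4 fell, led by Trim43b (1.5), Trim35 (0.56, 0.0611 without the block) and Trim47 (1.21). Of 44 proteasome genes 9 rose and 1 fell with a median of 0.07. Those that rose included the immunoproteasome genes Psmb10 (0.63), Psmb9 (0.40, 0.140 without the block) and Psmb8 (0.36, 0.230 without the block) and the activator subunits Psme1 (0.38, 0.202 without the block) and Psme2 (0.48). Psmb8 lost its call without either of 2 single libraries, at an adjusted p of up to 0.0577. Psmb10 went from 98, 83.8, 100.4 and 117 CPM to 164, 121, 178 and 154 CPM.

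Genes of protein entry and folding in the endoplasmic reticulum moved down. Of 25, 10 fell and 1 rose, with a median log2 fold change of -0.19; 6 of the falls kept their call without each library, but 0 of the 11 were called without the block. The disulfide isomerase Pdia6 measured 187, 191, 274 and 257 CPM in tumor-draining and 154, 154, 197 and 174 CPM in agonist libraries (log2 fold change -0.40 with SE 0.07, adjusted p = 0.00370, 0.322 without the block). The chaperone Hspa5 measured 705, 727, 1049 and 1010.2 CPM against 537, 639, 742 and 669 CPM (log2 fold change -0.42 with SE 0.09, adjusted p = 0.00706, 0.303 without the block). Spcs3, a signal peptidase subunit, had little spread with agonist, at 108, 106, 102 and 106 CPM, below its 147, 129, 168 and 133 CPM without it (-0.44, adjusted p = 0.00534, 0.0820 without the block). The translocon subunit Sec61b was the one that rose (0.45, 0.245 without the block).

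RNA splicing factors fell in 9 of 27 cases and rose in 0, with a median of -0.22, and 0 of the 9 were called without the block. Srsf1, a serine and arginine rich activator of exon inclusion, measured 229, 227, 296 and 230.4 CPM in tumor-draining and 184, 199, 192 and 186 CPM in agonist libraries (log2 fold change -0.36 with SE 0.08, adjusted p = 0.0100, 0.186 without the block). Its relatives Srsf3 (-0.38, 0.180 without the block) and Srsf7 (-0.36, 0.268 without the block) fell by similar amounts, and Srsf7 had an adjusted p of 0.0507 without tumor-draining replicate 2. Of 371 Zfp zinc finger genes 37 fell (9.97%) and 11 rose (2.96%), with a median of -0.08. The share that fell lay near the 9.02% of protein coding genes called lower, and 1 of the 48 was called without the block. The 3 Tet dioxygenases, which oxidise methylated cytosine, all fell. Tet1 went from 6.64, 11.5, 13.9 and 9.75 CPM to 3.23, 6.2, 6.06 and 5.18 CPM (log2 fold change -1.01 with SE 0.12, adjusted p = 0.000310, 0.0507 without the block), Tet2 had a change of -0.41 (0.122 without the block) and Tet3 one of -0.28 (0.467 without the block), which had an adjusted p of 0.0510 without tumor-draining replicate 1. Among 24 genes of ribosome biogenesis 4 fell (16.7%) and 0 rose, and 0 of the 4 were called without the block. Cytoplasmic ribosomal proteins were called in 3 of 84 cases (3.57%), below the 13.3% of all genes. Of 78 mitochondrial ribosomal proteins 8 rose (10.3%) and 0 fell, led by Mrpl38 (0.76) and Mrps6 (0.72). That share lay near the 8.96% of protein coding genes called higher. Without the block 2 of these 8 rises were called, and 2 kept their call without each single library.

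Of 12 CD300 receptors, inhibitory and activating lipid receptors of myeloid cells, 4 fell and 0 rose, with a median of -0.48. Cd300a went from 204, 142, 221 and 162 CPM to 137, 113, 142 and 105 CPM (log2 fold change -0.54 with SE 0.10, adjusted p = 0.00489, 0.158 without the block), and Cd300lb (-0.75, 0.0777 without the block) and Cd300c (-0.70, 0.364 without the block) fell as well. Cd300c lost its call without any of 3 single libraries, at an adjusted p of up to 0.0839. Regulators of G protein signaling split, with 4 of 20 higher and 4 lower. Rgs18 fell from 31.6, 33.9, 41.8 and 33.0 CPM to 10.3, 16.5, 17.6 and 11.5 CPM (log2 fold change -1.34 with SE 0.14, adjusted p = 0.000251), and Rgs2 had a change of -0.65. Of 31 semaphorins and plexins 4 rose and 1 fell. Sema7a, a membrane-anchored semaphorin, went from 70.4, 73.8, 101 and 88.9 CPM to 171, 165, 198 and 228 CPM (log2 fold change 1.19 with SE 0.10, adjusted p = 3.73e-05), and Plxna1, a semaphorin receptor known for dendritic cell transit into lymphatics, rose with it (0.96, adjusted p = 0.0109).

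Of 287 solute carriers 35 rose and 27 fell, with a median of 0.04. The glutamate transporters Slc1a3 and Slc1a2 rose, Slc1a3 from 11.5, 12.1, 10.1 and 12.6 CPM to 28.8, 29.1, 29.9 and 44.7 CPM (log2 fold change 1.51 with SE 0.16, adjusted p = 0.000327) and Slc1a2 by a log2 fold change of 1.29. The glucose transporter Slc2a3 went from 44.3, 56.7, 65.4 and 76.3 CPM to 19.6, 26.7, 40.6 and 31.1 CPM (log2 fold change -1.07 with SE 0.11, adjusted p = 0.000139), and the endosomal sodium and proton exchanger Slc9a9 had a change of -0.92. Both groups were apart for Slc1a3 and Slc2a3. Of 17 subunits of the vacuolar ATPase, which acidifies lysosomes, 5 rose and 1 fell, with Atp6v1b2 at 192, 159.9, 202 and 197 CPM against 268, 265, 300.1 and 274 CPM (log2 fold change 0.56 with SE 0.08, adjusted p = 0.000625). Of 21 genes of fatty acid oxidation 4 rose and 0 fell, and 0 of them were called without the block. Families with few calls included collagens, with 1 of 36, and histone genes, with 3 of 74.

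Markers of cell types that a CD11c gate can hold were counted in the same way. Of 12 dendritic cell markers 7 fell and 2 rose, with a median log2 fold change of -0.50, and their summed level was 26275 to 42244 CPM in tumor-draining and 18607 to 26294 CPM in agonist libraries. Cd74, H2-Aa and H2-Ab1 are among the 7 that fell and hold most of this sum. The fall of the sum is thus largely the class II fall given above. The genes that fell included Itgax, which encodes CD11c, at 871, 751, 1129.7 and 1121 CPM against 641, 658, 921 and 703 CPM (log2 fold change -0.39 with SE 0.10, adjusted p = 0.0260, 0.431 without the block), and its adjusted p was 0.0510 to 0.0860 without 5 of the single libraries. Flt3 (-0.56, 0.187 without the block) and Dpp4 (-0.65, 0.0528 without the block) fell too, while Ccr7 (1.70) and Batf3 (0.55, 0.0815 without the block) rose. Of 10 plasmacytoid dendritic cell markers 4 fell and 1, Irf7, rose. Siglech, a receptor of those cells, measured 43.4, 161, 178 and 262 CPM against 19.0, 60.1, 95.4 and 119.8 CPM and differed far more between prefixes than between groups (log2 fold change -1.16 with SE 0.12, adjusted p = 0.000185, 0.533 without the block). The summed plasmacytoid level was 656 to 1448 CPM and 659 to 1269 CPM.

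Of 14 monocyte and macrophage markers 4 rose and 3 fell, with a median of 0.87, and their sum went from a range of 1598 to 2719 CPM to one of 2281 to 3453 CPM. Siglec1, Marco, Vcam1 (1.12) and C1qc (1.12) rose, and Ccr2, Adgre1 (-0.61, 0.0680 without the block) and Cd163 fell. C1qc, a chain of complement C1q, stood at 157, 98.6, 193 and 121 CPM against 306, 225, 319 and 401 CPM, and its adjusted p of 0.0412 rose to as much as 0.126 without 1 library. Of 12 natural killer cell markers 6 rose and 1 fell, with sums of 145 to 222 CPM and 171 to 239 CPM. The genes that rose were those of cytotoxic granules, Gzma, Gzmb, Nkg7 (1.32, 0.0576 without the block) and Prf1, perforin, at 2.71, 3.77, 5.07 and 7.55 CPM against 5.85, 7.2, 24.6 and 21.4 CPM (log2 fold change 1.48 with SE 0.21, adjusted p = 0.00138, 0.0908 without the block), with the receptors Ncr1 (0.98, 0.122 without the block) and Klre1 (0.75, 0.228 without the block). Klre1 had an adjusted p of up to 0.149 without 1 library. Gzmb measured 2.82, 2.52, 2.58 and 3.36 CPM against 6.27, 8.73, 22.3 and 15.8 CPM, and its log2 fold change was 1.49 in replicates 1 and 2 and 2.67 in replicates 3 and 4. Klrd1, which encodes CD94, moved the other way, from 45.6, 36.8, 49.9 and 26.8 CPM to 18.6, 17.7, 21.9 and 14.1 CPM (log2 fold change -1.12 with SE 0.11, adjusted p = 0.000126).

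Of 12 B cell markers 3 rose and 3 fell, with sums of 828 to 1893 CPM and 709 to 1472 CPM. Fcer2a, the low-affinity IgE receptor CD23, went from 18.2, 29.9, 23.1 and 21.4 CPM to 31.0, 46.0, 56.9 and 54.1 CPM (log2 fold change 1.02 with SE 0.18, adjusted p = 0.00634), and Ighd (-0.78, 0.397 without the block) and Ighm (-0.40, 0.733 without the block) fell, with adjusted p of up to 0.116 and 0.127 without 1 library. Of 14 T cell markers 1, Cd5 (-0.88, 0.125 without the block), fell and 0 rose. None of the neutrophil (9 tested), fibroblast (13 tested), epithelial and carcinoma (13 tested) or red blood cell and platelet (8 tested) genes was called. The summed epithelial level was 70.2 to 450.4 CPM in tumor-draining and 53.6 to 603 CPM in agonist libraries, with the 603 CPM in agonist replicate 1. Agonist replicate 4 held the highest sums of endothelial (2027 CPM, against 354 to 512 CPM in the other agonist libraries) and fibroblast genes (384 CPM, against 84.1 to 104 CPM). The part of these cells in the results was not tested.

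**Figure D5:**
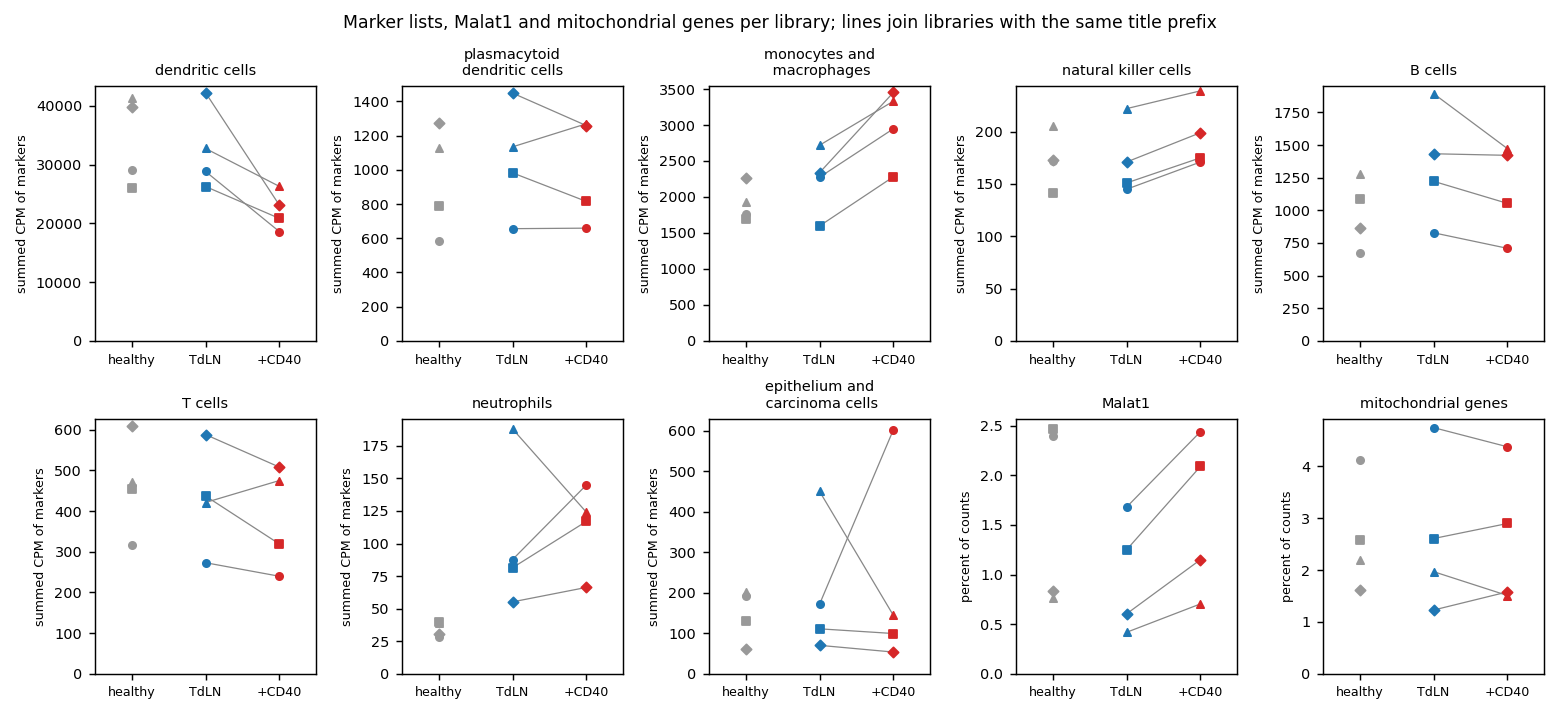
The first 8 panels plot the summed CPM of a marker list in each library of the healthy, tumor-draining (TdLN) and agonist (+CD40) groups, and the last 2 panels the percent of counts taken by Malat1 and by mitochondrial genes; lines join only the tumor-draining and agonist libraries of the same prefix. From tumor-draining to agonist the dendritic cell sum falls and the monocyte and macrophage sum and Malat1 rise along all 4 lines. Most of the dendritic cell sum is that of Cd74, H2-Aa and H2-Ab1.

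Long noncoding RNAs were named by the 4 largest rises and falls above a mean log2 CPM of 1. AW112010, a transcript known to be induced in activated immune cells, measured 128, 86.3, 90.6 and 73.7 CPM in tumor-draining and 406, 218, 189 and 186 CPM in agonist libraries (log2 fold change 1.35 with SE 0.10, adjusted p = 3.08e-05). Mir155hg, the host transcript of the inflammatory microRNA miR-155, measured 2.02, 1.95, 1.06 and 1.27 CPM against 5.59, 6.22, 2.22 and 3.89 CPM (log2 fold change 1.45 with SE 0.18, adjusted p = 0.000383, 0.0636 without the block). Both separated the groups. Gm47662 (2.03, 0.114 without the block) and Gm13546 (1.99) rose with them. F630028O10Rik fell from 75.4, 43.3, 30.2 and 24.7 CPM to 19.0, 17.7, 5.66 and 6.36 CPM (log2 fold change -1.87 with SE 0.23, adjusted p = 0.00179, 0.0634 without the block), and the other falls were those of Gm14634 (-1.24, 0.422 without the block), F730311O21Rik (-1.15, 0.157 without the block) and Gm45552 (-1.14). The mature microRNA is not measured by these libraries.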

How the data were processed

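Total RNA of lymph node cells was sequenced after directional library preparation, per the labels' protocols. Salmon and mm10 are named per the submitters' processing notes, while the deposited values carry the name sailfish. The sources used here state no version of Salmon and no annotation. The authors deposited estimated counts (expected counts) and TPM values per transcript. Of 132374 transcripts 131974 were matched to a GENCODE mouse annotation, which was chosen here and not by the authors. They were summed to 52355 genes, and the unmatched transcripts held 0.116% to 0.147% of the counts. The sums were rounded to whole numbers. The gene test was that of edgeR 4.0.16 under R 4.3.3 (TMM scaling, a minimum count of 10 in the filter on low counts, robust quasi-likelihood fit) on all 12 libraries with title prefix and group as terms, and p-values were adjusted over the 23729 genes tested. The biological coefficient of variation was 20.7% with 6 residual degrees of freedom. The steps were tested on simulated data. The title prefixes were taken as pairs because the comparison was defined that way. Deviations from the group mean correlated at 0.30 to 0.47 in the 4 same-numbered pairs of agonist and tumor-draining libraries. In the 12 other pairings they correlated at -0.45 to 0.31, with a median of -0.17. Each group was centred on its own mean, which pushes the other pairings down when same-numbered ones are positive. The median is therefore no separate test of the pairing. No pair of libraries of a group agreed within sampling noise (lowest chi-square per degree of freedom 27.9).

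The members and lists were chosen with earlier results of these data known. Genes were named by rule: in 3 ranges of mean log2 CPM the 8 largest rises and 8 largest falls among protein coding called genes that moved one way in 4 of 4 pairs, the 8 largest rises and falls in CPM, 4 rises and 4 falls of long noncoding RNAs, up to 3 called members with the smallest p per list, and Cd40, Itgax, Malat1, Traf1, Relb and Nfkb2. Alternatives used no block, other scalings and filters, DESeq2 1.42.0, limma 3.58.1 on counts and on log2 TPM with a pseudocount of 0.1 or 1, and fewer libraries. Some genes and 1 gene list are not reported here.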

Additional observations from a re-analysis of the deposited data

Results flagged for a closer look

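Single libraries that stood apart from the other 3 of their group were looked for among the named genes. Of 512 groups examined 22 (4.30%) held such a library, and chance gives about 1 in 20. Agonist replicate 1 was the low library for Slc9a9 (21.2 CPM), Camk1d (65.5 CPM), Wdfy4 (698 CPM), Rab33b (22.0 CPM), Klf12 (3.23 CPM), Cr2 (36.1 CPM) and Optn (8.40 CPM), and the high one for Txn1 (219 CPM). Agonist replicate 3 was the high library for H2-Aa (5820.1 CPM) and Hadh (34.3 CPM), and agonist replicate 4 for Ccl22 (2251 CPM), Sgpp1 (75.7 CPM) and Spata31d1b (54.7 CPM). Among tumor-draining libraries, replicate 1 was low for Stat4 (43.2 CPM) and Optn (6.34 CPM), and replicate 2 was low for Ccr2 (267 CPM) and Anxa4 (177 CPM). Tumor-draining replicate 3 was low for Cryaa (1.27 CPM) and Spata31d1b (6.05 CPM) and high for March5 (57.3 CPM) and Srsf1 (296 CPM), and replicate 4 was high for Relb (432 CPM).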

How the results depend on the processing

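With no replicate block 635 genes were called (438 higher, 197 lower, 311 by at least 2-fold), and 110 of the 258 genes named by rule were called, with none reversed in direction. On log2 TPM with limma 1714 genes were called with a pseudocount of 0.1 (780 higher, 934 lower) and 1662 with a pseudocount of 1 (771 higher, 891 lower, 231 by at least 2-fold). DESeq2 called 1798 genes higher and 2383 lower, and edgeR with RLE size factors 1433 higher and 1916 lower, so that 43.0% and 42.8% of the calls were higher, against 50.6% with TMM. Replicates 1 and 2 alone gave 1482 genes (898 higher, 584 lower), and replicates 3 and 4 alone 573 (346 higher, 227 lower, 291 by at least 2-fold), with fewer samples in each. Leaving out 1 library gave 2059 to 3020 genes (945 to 1420 higher, 1021 to 1600 lower, 448 to 680 by at least 2-fold), and leaving out a prefix 1609 to 2333 (917 to 1266 higher, 685 to 1327 lower, 440 to 528 by at least 2-fold). In the bases before the start alone, a metal response element was in 49.2% of promoters of genes called higher and 51.8% of those called lower, beside 49.7% of all tested. An E-box was in 8.29% of those called lower, beside 7.45% of all tested. Over the whole window the metal response element was in 57.9%, 58.9% and 56.9% of the same sets. The E-box was there in 10% of those called lower and 9.05% of all tested. For the TPM fits and DESeq2 the cause was not tested. Of genes with a mean log2 CPM under 0, 2.21% were called, and at this depth a missing call there does not show that a gene did not change.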
